A study of Homo sapiens with 6 samples.

Results

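The SLC25 family is the main family of carriers in the inner mitochondrial membrane, and its transcripts were followed here in MM.1S, a human multiple myeloma cell line. Its members were taken as the protein-coding genes of the count table whose symbol is SLC25A followed by a number, which gave 48 of 60671 genes. Of these, 41 had enough counts to be tested and 7 did not. The CD38 KO group had 3 libraries from 1 CRISPR/Cas9 clone of MM.1S lacking CD38, and the WT group had 3 libraries from the unedited MM.1S line. Both lines had received GFP and click beetle red luciferase through a lentivirus. Live cells had been sorted on CD38 at the surface, negative cells from the clone and positive cells from the WT line, so the sort followed the genotype. The labels describe the 3 libraries of a group as biological replicates prepared from the sorted cells, and p-values measure the spread between such preparations of 1 clone and 1 line, not between clones. No aim is stated beyond describing the knockout.

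An SLC25 carrier is built from 3 repeats of a pair of membrane-spanning helices, and most members exchange a metabolite of the matrix for one of the cytosol. Together they move adenine nucleotides, phosphate, NAD, coenzyme A, carboxylates, amino acids, iron and glutathione across a membrane that is otherwise tight to them. CD38 is an ectoenzyme that breaks down NAD, and SLC25A51 is the carrier through which human mitochondria take up NAD. Plasma cells, the cells from which myeloma arises, secrete immunoglobulin and need much ATP to do so.

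Sequencing depth was 61515519 to 65709440 counts per library in CD38 KO and 63606445 to 72335496 in WT. Counts of CD38 itself were 51, 80 and 48 in CD38 KO against 3148, 2678 and 2545 in WT, so every CD38 KO library was far below every WT library. Of the 9 plasma cell and myeloma markers, 8 passed the filter on low counts, and CD27 had 13 counts or fewer in every library. Their summed level was 9090 to 9120 CPM in CD38 KO and 7140 to 7150 CPM in WT, with CPM the counts relative to library size after TMM scaling. XBP1 and JCHAIN contributed most to the higher sum, while SLAMF7 and MZB1 were lower (log2 fold changes -0.37 and -0.22, edgeR adjusted p = 1.18e-08 and 2.61e-05) and SDC1 was not called. Summed markers of T and NK cells reached 5.29 to 5.7 CPM in CD38 KO and 1.39 to 1.72 CPM in WT, mostly from CD3E, and those of monocytes 0.759 to 1.3 CPM in CD38 KO and 0.609 to 1.13 CPM in WT. Erythroid markers summed to 29.5 to 32.9 CPM in CD38 KO and 23.4 to 23.9 CPM in WT, mostly HBB, and stromal and endothelial markers to 5.76 to 6.84 CPM in CD38 KO and 3.49 to 4.58 CPM in WT, mostly PDGFRB. Transcripts encoded by the mitochondrial genome made up 6.83% to 7.3% of counts in CD38 KO and 2.63% to 2.71% in WT. The part of these differences in the results on the nuclear-encoded carriers was not tested, except that a fit without the mitochondrially encoded genes gave the same numbers of members higher and lower.

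Roughly as many carriers were higher as were lower in CD38 KO, and most moved by modest amounts. Of the 41 tested members, 15 were higher, 11 were lower and 15 did not pass the threshold (edgeR quasi-likelihood test, Benjamini-Hochberg adjusted p under 0.05 over all 20120 tested genes). Across all tested genes 44.4% passed the same threshold, 22.8% higher and 21.6% lower. Carriers are abundant transcripts, however, and the share depends on abundance. Among genes averaging at least 10 CPM, 63.4% of 8893 passed, 32.6% higher and 30.7% lower. Of the 34 members at that level 22 passed, or 64.7%, with 12 higher and 10 lower. The share of members called was therefore near that of other genes with like levels. Counts within substrate classes, given below, rest on few carriers each and were not tested against these shares. With no factor for library composition, 12 members were higher and 13 lower, and over all tested genes 3632 were higher and 5570 lower, against 4592 and 4342 with TMM.

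Most changes were small. The log2 fold change had a median size of 0.243 over the 41 tested members, 0.223 over genes averaging at least 10 CPM and 0.323 over all tested genes, and the median with its sign was -0.011 for the members. Of the 26 members called, 19 changed by less than 0.5 on the log2 scale. Past that size, 4 were higher (SLC25A29, SLC25A30, SLC25A35 and SLC25A15) and 3 were lower (SLC25A27, SLC25A51 and SLC25A42), where 12.2% and 11.2% of all tested genes were. Of the 34 members averaging at least 10 CPM, 1 was higher and 2 were lower past that size. Of the 8893 genes at that level, 947 were higher and 830 lower. SLC25A27 passed the filter on low counts through the WT libraries alone, where it is high, so its call had to go this way. In 28 of the 41, including all 26 called, no CD38 KO value lay within the WT range or the reverse (17 higher, 11 lower). Such separation was found in 52.5% of all tested genes, 26.9% higher and 25.6% lower. Among genes averaging at least 10 CPM it was found in 6123 of 8893, 3166 higher and 2957 lower. Of the 34 members at that level 24 were separated, 14 higher and 10 lower, a share near that of those genes.

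**Figure D1:**
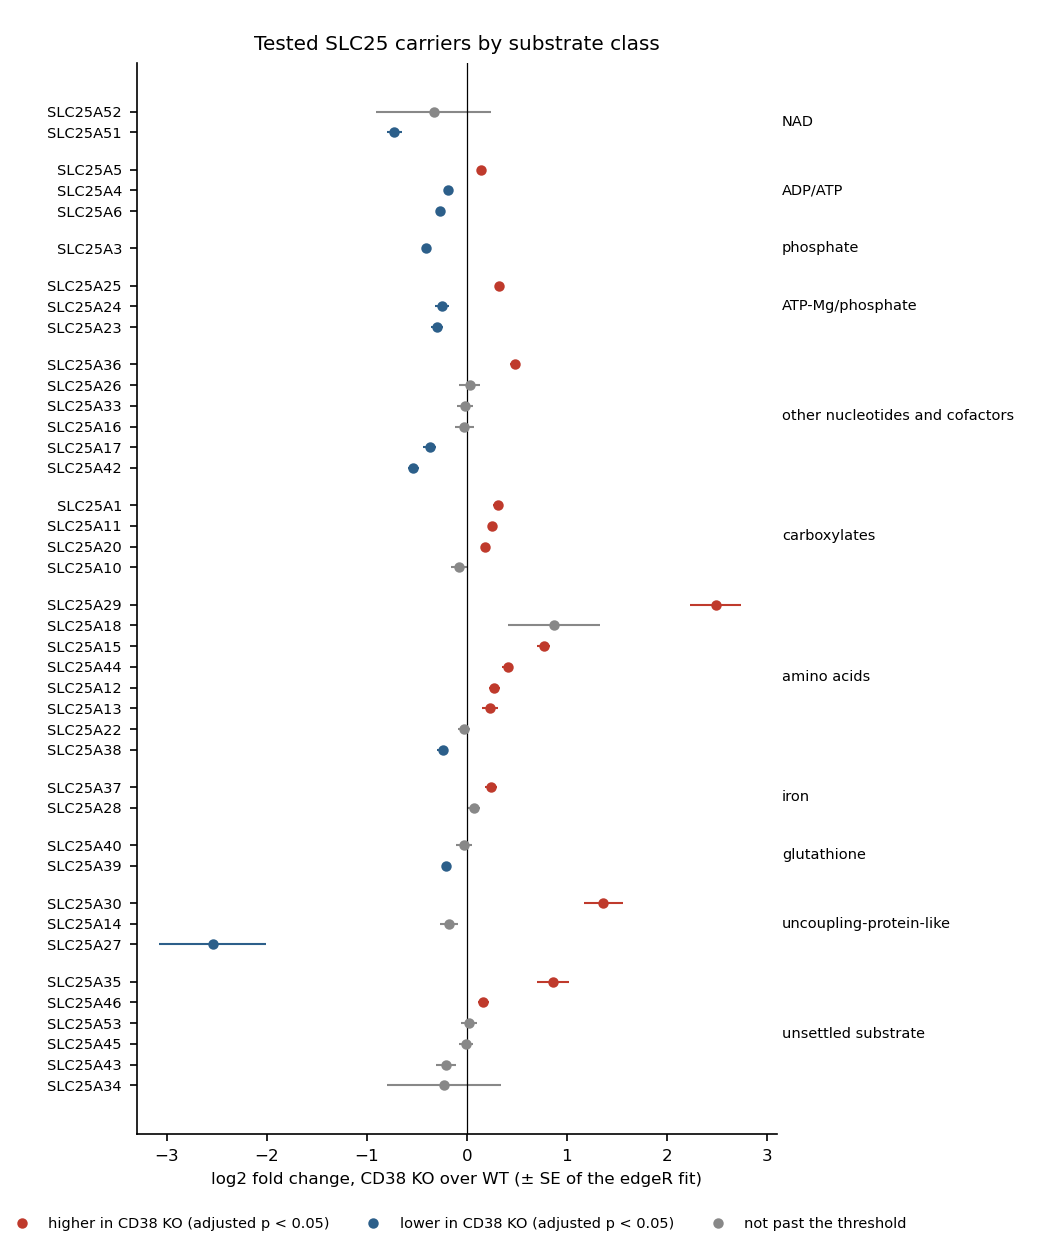
Log2 fold change of 40 of the 41 tested carriers, CD38 KO over WT, with the standard error of the edgeR fit as a bar, ordered within substrate classes. The 15 carriers in red were higher, the 11 in blue lower and the 14 in grey did not pass the threshold; SLC25A29 (2.49) and SLC25A27 (-2.54) lie farthest from 0.

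Whether the family's summed level separated the groups rested on the scaling. After TMM the members together had 3148, 3270 and 3180 CPM in the CD38 KO libraries and 3313, 3229 and 3307 CPM in the WT libraries, and the ranges overlapped. The ADP/ATP carriers summed to 1109 ± 31.9 CPM in CD38 KO and 1209 ± 32.1 CPM in WT (SD, n = 3 each), with no overlap. Without them the family summed to 2091 ± 30.4 CPM in CD38 KO and 2074 ± 15.4 CPM in WT (SD, n = 3 each), again overlapping. As a share of all counts, with no such scaling, the family had 0.306%, 0.316% and 0.309% in CD38 KO and 0.339%, 0.336% and 0.338% in WT. Without the ADP/ATP carriers it had 0.201%, 0.206% and 0.203% in CD38 KO and 0.214%, 0.214% and 0.212% in WT. By these shares every CD38 KO library lay below every WT library. All counts here include the mitochondrially encoded ones, which made up 6.83% to 7.3% in CD38 KO and 2.63% to 2.71% in WT and so lower the CD38 KO shares more. With those counts left out of the total, the shares of the whole family still do not overlap between the groups. The shares without the ADP/ATP carriers then do overlap.

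The NAD carrier SLC25A51 was lower in the knockout clone. It had 17.2, 19.2 and 18.2 CPM in the CD38 KO libraries (1102, 1143 and 1127 counts) and 29.94, 30.02 and 30.18 CPM in the WT libraries (2216, 1989 and 1982 counts). Every CD38 KO library was well below every WT library, and the WT values were almost the same. The level fell by 39.4% in CD38 KO, a log2 fold change of -0.72 ± 0.071 (SE) at an edgeR adjusted p of 3.09e-08. Over the 14 alternative settings the log2 fold change lay between -0.806 and -0.681 and the call was kept in each. In bulk RNA, less of a transcript in every cell and fewer cells with much of it cannot be told apart. The gene lies on chromosome 9 (37879400 to 37904353, minus strand, GENCODE 29, GRCh38), and of its 10 nearest tested neighbours 3 were higher and 2 were lower, with a median log2 fold change of 0.073.

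The close relative SLC25A52, which can also carry NAD, was near the limit of detection, with 13, 8 and 9 counts in CD38 KO and 17, 6 and 19 counts in WT. Its log2 fold change of -0.33 ± 0.576 (SE) did not pass the test (edgeR adjusted p = 0.679). SLC25A51 made up 99.1% ± 0.249 of the counts of the pair in CD38 KO and 99.3% ± 0.334 in WT (SD, n = 3 each), with overlapping values (two-sided exact permutation p = 0.5). The coding sequences of the pair are 94.5% identical in a gapped alignment, and 301 of 845 windows of 50 bases of SLC25A51 occur unchanged in SLC25A52. Reads from these windows can be placed on either gene, so the split of counts within the pair is uncertain. Gaps included, the alignment differs at 51 bases, so reads from other parts can tell the pair apart too. The stretch shown is the gap-free one of its length with the most differences. It runs from coding base 325 to 474 of SLC25A51 (chromosome 9) and 355 to 504 of SLC25A52 (chromosome 18). Both are from GENCODE 29 transcripts, and capitals mark the 8 differing positions.
SLC25A51: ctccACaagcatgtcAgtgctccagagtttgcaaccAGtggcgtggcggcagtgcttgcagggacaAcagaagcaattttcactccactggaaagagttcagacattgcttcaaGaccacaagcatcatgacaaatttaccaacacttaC
SLC25A52: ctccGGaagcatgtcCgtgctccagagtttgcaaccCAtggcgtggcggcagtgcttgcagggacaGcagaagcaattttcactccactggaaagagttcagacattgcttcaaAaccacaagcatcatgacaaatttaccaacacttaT

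The ADP/ATP carriers, which bring ADP into the matrix and send out ATP, shifted against each other. SLC25A5, the isoform of proliferating cells, had 365.4, 375.1 and 357.1 CPM in CD38 KO and 326.5, 329.4 and 341.8 CPM in WT, a log2 fold change of 0.14 ± 0.038 (SE) at an edgeR adjusted p of 0.00528. SLC25A6, the isoform found widely across human tissues, had 479.9, 522.2 and 497.0 CPM in CD38 KO and 622.8, 571.5 and 607.8 CPM in WT, a log2 fold change of -0.27 ± 0.041 (SE) at an edgeR adjusted p of 1.8e-05. SLC25A4, best known from heart and muscle, had 239.1, 247.8 and 241.2 CPM in CD38 KO and 276.6, 271.4 and 279.6 CPM in WT, a log2 fold change of -0.18 ± 0.038 (SE) at an edgeR adjusted p of 3.83e-04. For each of the 3, no value of one group lay within the range of the other. The rise of SLC25A5 rests on the scaling, since with library size alone its log2 fold change was 0.054 (edgeR adjusted p = 0.23).

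The shares of the 3 isoforms do not depend on the scaling. SLC25A5 made up 33.0% ± 0.594 of the ADP/ATP carrier counts in CD38 KO and 27.5% ± 0.776 in WT (SD, n = 3 each), a difference of 5.5 percentage points. SLC25A6 held 45.1% ± 0.72 in CD38 KO and 49.7% ± 1.05 in WT, and SLC25A4 held 21.9% ± 0.227 in CD38 KO and 22.8% ± 0.303 in WT (SD, n = 3 each). None of these shares overlapped between the groups. Each gave a two-sided exact permutation p of 0.1, the smallest that 3 libraries against 3 allow. Adjusted over the 9 groups of paralogues compared, this permutation p was 0.18. Per length of merged exons, SLC25A5 ranked first in the family in CD38 KO and second in WT, with 243.9 ± 6.01 CPM per kb in CD38 KO and 221.7 ± 5.42 CPM per kb in WT (SD, n = 3 each). SLC25A6 stood at 230.9 ± 9.84 CPM per kb in CD38 KO and 277.6 ± 12.2 CPM per kb in WT (SD, n = 3 each). The levels per length of the pair overlapped in CD38 KO, where the highest SLC25A6 library had 241.3 and the lowest SLC25A5 library 238.1, and did not overlap in WT.

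The fourth ADP/ATP carrier, SLC25A31, is known from testis and had too few counts to be tested. Its counts were 6, 6 and 12 in CD38 KO and 0, 0 and 2 in WT, where a count of 0 allows up to 3. The other isoforms are 77.3% to 78.8% identical in their coding bases and share no window of 50 bases, so reads of that length within the coding part belong to 1 of them. The first 120 coding bases show how the isoforms diverge at the start while keeping the same frame; they are from GENCODE 29, and capitals mark the 34 positions at which the 3 are not all alike.
SLC25A5: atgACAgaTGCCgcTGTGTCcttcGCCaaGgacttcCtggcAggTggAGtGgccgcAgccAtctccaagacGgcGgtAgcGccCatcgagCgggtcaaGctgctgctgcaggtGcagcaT
SLC25A6: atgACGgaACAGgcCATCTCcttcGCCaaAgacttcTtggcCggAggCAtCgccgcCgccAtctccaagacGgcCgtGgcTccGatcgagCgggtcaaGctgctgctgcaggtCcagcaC
SLC25A4: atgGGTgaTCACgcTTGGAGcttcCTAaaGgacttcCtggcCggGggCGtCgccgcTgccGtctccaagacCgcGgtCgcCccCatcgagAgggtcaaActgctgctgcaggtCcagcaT

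**Figure D2:**
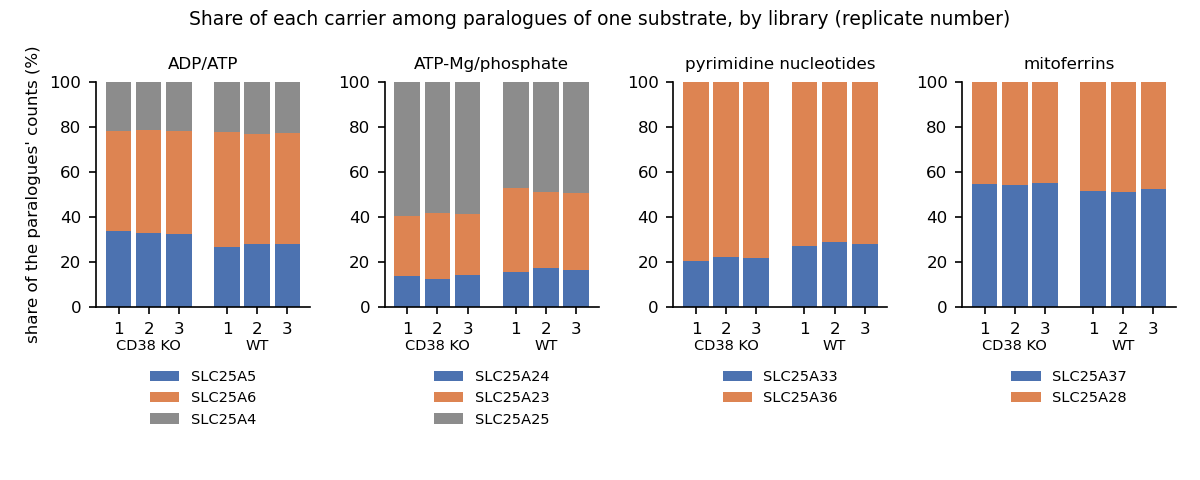
Share of each carrier, in percent of the counts of its paralogues, for each library of CD38 KO (left bars) and WT (right bars); paralogues under 1% are left out. SLC25A5 takes a larger share of the ADP/ATP carriers and SLC25A25 of the ATP-Mg/phosphate carriers in every CD38 KO library than in any WT library.

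Phosphate enters the matrix through SLC25A3, which supplies ATP synthase and also carries copper. SLC25A3 had 183.7, 195.0 and 190.0 CPM in CD38 KO and 243.4, 256.6 and 252.3 CPM in WT. Its log2 fold change was -0.40 ± 0.040 (SE) at an edgeR adjusted p of 4.12e-08. It fell by 24.4% in CD38 KO, with no overlap. The ATP-Mg/phosphate carriers, calcium-regulated exchangers that set the size of the adenine nucleotide pool of the matrix, went in both directions. SLC25A25 was higher, with 104.4, 101.2 and 101.8 CPM in CD38 KO and 80.6, 81.3 and 84.0 CPM in WT (log2 fold change 0.32, edgeR adjusted p = 3.68e-06). SLC25A23 averaged 48.3 ± 2.26 CPM in CD38 KO and 59.5 ± 4.26 CPM in WT, and SLC25A24 averaged 23.5 ± 1.77 CPM in CD38 KO and 27.9 ± 1.33 CPM in WT (SD, n = 3 each). Both were lower, with log2 fold changes of -0.30 and -0.25 (edgeR adjusted p = 2.66e-04 and 0.00946).

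Among the ATP-Mg/phosphate carriers SLC25A25 thus made up 58.8% ± 0.648 of counts in CD38 KO and 48.4% ± 1.15 in WT (SD, n = 3 each), a difference of 10.4 percentage points. The shares did not overlap (two-sided exact permutation p = 0.1, the smallest possible). A gene on the opposite strand, SLC25A25-AS1, covers 13.5% of the exon bases of SLC25A25 and was higher too, at 8.00 ± 0.718 CPM in CD38 KO and 5.76 ± 0.380 CPM in WT (SD, n = 3 each). Because the strand setting of the counting is not known here, reads in the overlap cannot be assigned with certainty.

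Of the 7 tested carriers of other nucleotides and cofactors, 2 were lower and 1 was higher, where 30.7% and 32.6% of all genes averaging at least 10 CPM were. SLC25A42, which imports coenzyme A into mitochondria, had 46.5, 45.9 and 49.7 CPM in CD38 KO and 69.9, 65.7 and 70.0 CPM in WT. All CD38 KO values lay below all WT values, with a log2 fold change of -0.53 ± 0.053 (SE) at an edgeR adjusted p of 4.17e-08. The level fell by 30.9% in CD38 KO. SLC25A17, the carrier of coenzyme A, FAD and NAD in the peroxisomal membrane, was lower as well, at 39.3 ± 2.82 CPM in CD38 KO and 50.8 ± 3.82 CPM in WT (SD, n = 3 each; log2 fold change -0.37, edgeR adjusted p = 8.74e-05). SLC25A36, which carries pyrimidine nucleotides, had 65.7, 61.0 and 65.6 CPM in CD38 KO and 46.5, 44.8 and 46.2 CPM in WT, a log2 fold change of 0.48 ± 0.053 (SE) at an edgeR adjusted p of 1.48e-07. Its counterpart SLC25A33 had a log2 fold change of -0.02 (edgeR adjusted p = 0.883), and its share of the counts of the pair was 21.6% ± 0.955 in CD38 KO and 28.0% ± 0.762 in WT (SD, n = 3 each; two-sided exact permutation p = 0.1, the smallest possible). No call was reached for the S-adenosylmethionine carrier SLC25A26 (0.03) or for SLC25A16 (-0.03), both log2 fold changes.

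Of the 4 tested carriers of carboxylates, 3 were higher and 0 lower, where 32.6% and 30.7% of all genes averaging at least 10 CPM were. SLC25A1 exports citrate to the cytosol, where it feeds lipid synthesis, and had 142.1, 151.5 and 141.0 CPM in CD38 KO and 121.3, 111.0 and 118.5 CPM in WT (log2 fold change 0.31 ± 0.046 (SE), edgeR adjusted p = 1.1e-05). SLC25A11, the oxoglutarate carrier of the malate-aspartate shuttle, averaged 157.4 ± 4.84 CPM in CD38 KO and 132.0 ± 2.15 CPM in WT (SD, n = 3 each; log2 fold change 0.25, edgeR adjusted p = 3.47e-05). SLC25A20, which brings acylcarnitines in for oxidation, had 310.8, 333.9 and 311.0 CPM in CD38 KO and 281.5, 280.1 and 279.2 CPM in WT (log2 fold change 0.18 ± 0.039 (SE), edgeR adjusted p = 5.85e-04). With library size alone this log2 fold change was 0.101, and the call was kept. The dicarboxylate carrier SLC25A10 had a log2 fold change of -0.08 that did not pass the test (edgeR adjusted p = 0.451). In GENCODE 29, 46.6% of its exon bases belong also to AC139530.2, which is listed at 0 in every library.

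Of the 8 tested amino acid carriers, 5 were higher, 1 was lower and 2 were not called. Of all tested genes 22.8% were higher and 21.6% lower, and of those averaging at least 10 CPM 32.6% and 30.7%. SLC25A29, a carrier of basic amino acids such as arginine and lysine, had the highest log2 fold change of the family. Its level was 4.05, 3.65 and 4.07 CPM in CD38 KO (259, 217 and 252 counts) and 0.757, 0.966 and 0.365 CPM in WT (56, 64 and 24 counts). The groups were far apart, with a log2 fold change of 2.49 ± 0.254 (SE) at an edgeR adjusted p of 9.0e-08, or 5.61-fold. Of its 10 nearest tested neighbours on chromosome 14, 2 were higher and 0 lower, and their median log2 fold change was -0.259.

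SLC25A15, which exchanges ornithine and citrulline in the urea cycle and supplies ornithine in other tissues, had 40.6, 42.3 and 40.5 CPM in CD38 KO and 25.4, 22.9 and 24.0 CPM in WT. All CD38 KO libraries were above all WT libraries, with a log2 fold change of 0.77 ± 0.064 (SE) at an edgeR adjusted p of 2.56e-09, or 70.6% above WT. Per length of merged exons it ranked 8 in the family in CD38 KO and 13 in WT. SLC25A44, a carrier of branched-chain amino acids, had 62.9, 61.4 and 60.2 CPM in CD38 KO and 45.1, 45.7 and 48.3 CPM in WT (log2 fold change 0.41 ± 0.052 (SE), edgeR adjusted p = 1.44e-06). The aspartate/glutamate carriers SLC25A12 and SLC25A13, the other carriers of the malate-aspartate shuttle, were higher by 0.28 and 0.23 on the log2 scale (edgeR adjusted p = 5.7e-04 and 0.0183). The split within the pair overlapped between the groups, with SLC25A12 at 73.1% ± 0.758 of the pair's counts in CD38 KO and 72.5% ± 0.672 in WT (SD, n = 3 each; two-sided exact permutation p = 0.5, where 0.1 is the smallest possible). The call for SLC25A13 was lost without WT replicate 1 or WT replicate 2 and with library size alone.

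SLC25A38, which imports glycine for haem synthesis, was the amino acid carrier that was lower, at 36.3 ± 1.26 CPM in CD38 KO and 43.0 ± 1.17 CPM in WT (SD, n = 3 each; log2 fold change -0.24, edgeR adjusted p = 0.00173). The glutamate carrier SLC25A22 had a log2 fold change of -0.03 (edgeR adjusted p = 0.712). Its paralogue SLC25A18 had few counts, 30, 28 and 16 in CD38 KO and 20, 11 and 14 in WT, and its log2 fold change of 0.87 ± 0.463 (SE) did not pass (edgeR adjusted p = 0.136).

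**Figure D3:**
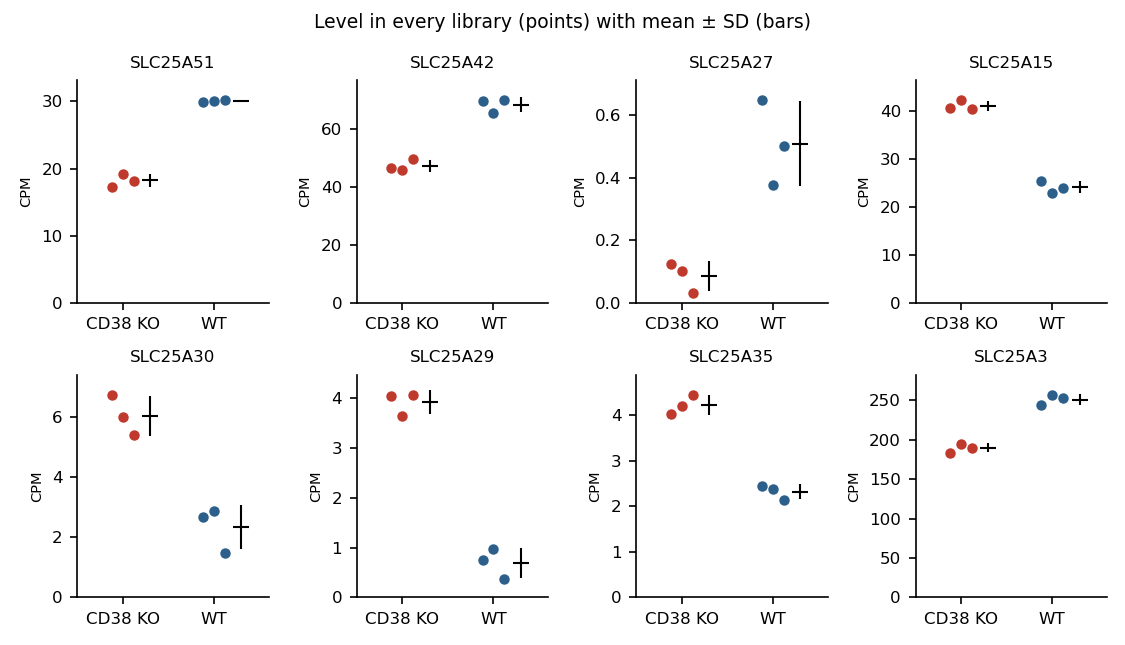
CPM of 8 carriers in each library (points, CD38 KO left in red, WT right in blue) with the mean and SD of each group beside them; each axis starts at 0. In all 8 panels the groups are apart, as in SLC25A51, where the CD38 KO libraries lie between 17.2 and 19.2 CPM and the WT libraries between 29.94 and 30.18 CPM.

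Iron reaches the matrix through the mitoferrins. SLC25A37, the form best known from erythroid cells, averaged 40.3 ± 0.747 CPM in CD38 KO and 34.1 ± 0.982 CPM in WT (SD, n = 3 each), and was higher with a log2 fold change of 0.24 (edgeR adjusted p = 0.00178), or 0.159 and still called with library size alone. SLC25A28, the form of other tissues, had a log2 fold change of 0.07 that did not pass (edgeR adjusted p = 0.377). SLC25A37 made up 54.6% ± 0.319 of the counts of the pair in CD38 KO and 51.6% ± 0.753 in WT (SD, n = 3 each; two-sided exact permutation p = 0.1, the smallest possible). The summed erythroid markers given above were higher in CD38 KO as well, nearly all from HBB (31.1 ± 1.63 CPM in CD38 KO and 23.3 ± 0.268 CPM in WT, SD, n = 3 each), and their part in this result was not tested.

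Of the glutathione carriers, SLC25A39 was lower, with 319.8, 329.7 and 322.4 CPM in CD38 KO and 386.3, 365.8 and 372.0 CPM in WT (log2 fold change -0.21 ± 0.038 (SE), edgeR adjusted p = 9.6e-05). SLC25A40 had a log2 fold change of -0.03 ± 0.083 (SE) and did not pass (edgeR adjusted p = 0.822). SLC25A39 was the main form of the pair in either group, and SLC25A40 held 6.44% ± 0.835 in CD38 KO and 5.73% ± 0.196 in WT (SD, n = 3 each; two-sided exact permutation p = 0.3).

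Of the 3 carriers named for their likeness to uncoupling proteins, SLC25A30 was higher, SLC25A27 was lower and SLC25A14 was not called. SLC25A30 had 6.74, 6.02 and 5.41 CPM in CD38 KO (431, 358 and 335 counts) and 2.67, 2.87 and 1.49 CPM in WT (198, 190 and 98 counts). The groups did not overlap, with a log2 fold change of 1.37 ± 0.195 (SE) at an edgeR adjusted p of 1.29e-05. SLC25A27, also called UCP4 and known from brain, had 8, 6 and 2 counts in CD38 KO and 48, 25 and 33 counts in WT. Its log2 fold change was -2.54 ± 0.537 (SE) at an edgeR adjusted p of 4.84e-04, but it passed the filter on low counts through the WT libraries alone and dropped out under a filter at 1 CPM in 3 libraries. SLC25A14 had a log2 fold change of -0.18 (edgeR adjusted p = 0.113) and passed in 2 of the 14 alternative settings.

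UCP2, a member of the same family under another symbol, changed more than any SLC25A gene above 10 CPM. It had 177.3, 184.5 and 176.2 CPM in CD38 KO and 414.9, 390.2 and 404.1 CPM in WT, a log2 fold change of -1.17 ± 0.040 (SE) at an edgeR adjusted p of 1.5e-15. The level fell by 55.5% in CD38 KO. UCP2 exports carboxylates such as aspartate from the matrix in exchange for phosphate. MTCH2, an outer-membrane relative that inserts proteins there, was lower too (log2 fold change -0.18, edgeR adjusted p = 0.00107), while MTCH1 did not pass (-0.11, edgeR adjusted p = 0.0579).

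Among the 6 tested carriers without a settled substrate, 2 were higher and 0 lower, where 22.8% and 21.6% of all tested genes were. SLC25A35 had 4.020, 4.201 and 4.440 CPM in CD38 KO and 2.445, 2.370 and 2.132 CPM in WT, with no overlap and a log2 fold change of 0.86 ± 0.158 (SE) at an edgeR adjusted p of 1.19e-04. RANGRF on the opposite strand covers 33.2% of its exon bases and had a log2 fold change of 0.49 that did not pass (edgeR adjusted p = 0.173). SLC25A46, an outer-membrane member with a part in mitochondrial fission, averaged 77.1 ± 3.24 CPM in CD38 KO and 68.7 ± 2.79 CPM in WT (SD, n = 3 each; log2 fold change 0.17, edgeR adjusted p = 0.0109), and its call was lost with library size alone and without WT replicate 2. The log2 fold changes of SLC25A34 (-0.23), SLC25A43 (-0.21), SLC25A45 (-0.01) and SLC25A53 (0.03) did not pass.

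Besides SLC25A31, the members below the filter were SLC25A2, SLC25A21, SLC25A32, SLC25A41, SLC25A47 and SLC25A48, none with more than 13 counts in any library. SLC25A32, the carrier of folate and FAD, had 5, 1 and 13 counts in CD38 KO and 0, 4 and 0 in WT. In GENCODE 29, 69.7% of its exon bases belong also to another gene, AC012213.5, which averaged 0.0212 CPM in CD38 KO and 0.0135 CPM in WT, so the low count of SLC25A32 is uncertain. A floor of 3 counts per library corresponds on average to 0.0486 CPM in CD38 KO and 0.0438 CPM in WT, and covers counting error only.

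**Figure D4:**
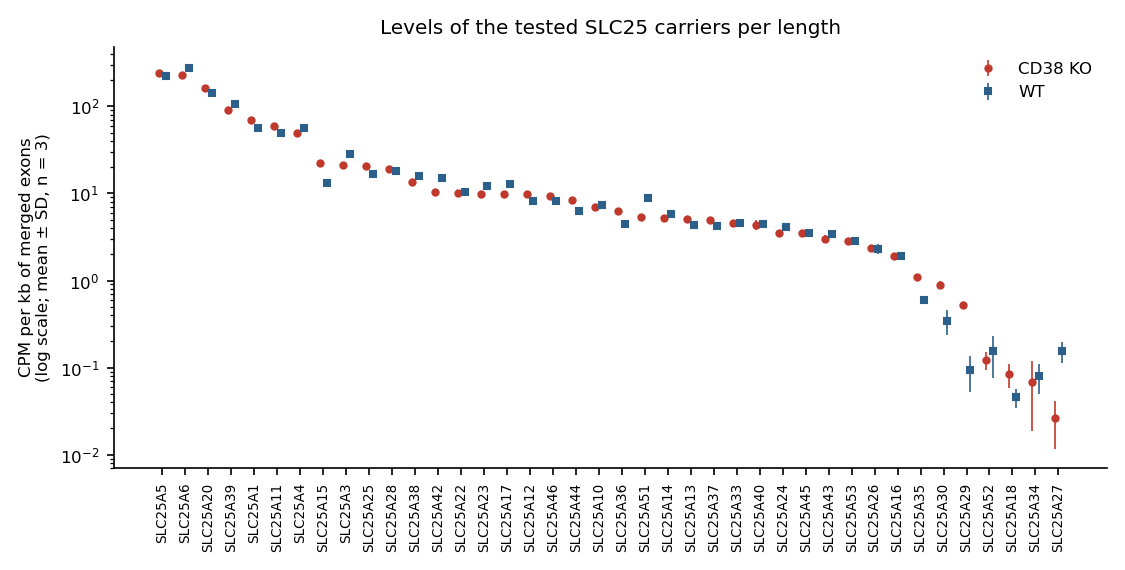
CPM per kb of merged exons (log scale) of 40 of the 41 tested carriers, mean and SD of 3 libraries, CD38 KO (red circles) left of WT (blue squares), in the order of the CD38 KO means. SLC25A5 and SLC25A6 lead with more than 200 CPM per kb, and 7 carriers exceed 50 CPM per kb in CD38 KO.

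Per length of merged exons, the order of the most abundant carriers was much the same in both groups. After SLC25A5 and SLC25A6 came SLC25A20 with 160.7 ± 6.71 CPM per kb in CD38 KO and 141.4 ± 0.572 CPM per kb in WT (SD, n = 3 each). SLC25A39 followed with 91.9 ± 1.45 CPM per kb in CD38 KO and 106.3 ± 2.98 CPM per kb in WT (SD, n = 3 each). SLC25A1, SLC25A11 and SLC25A4 followed at 69.1, 59.0 and 50.1 CPM per kb in CD38 KO and 55.8, 49.5 and 57.0 CPM per kb in WT. Levels per length rest on the length used: SLC25A3 ranked 9 in CD38 KO and 8 in WT by merged exons, and 5 in CD38 KO and 4 in WT by the transcript with the longest coding sequence. SLC25A51 ranked 23 in CD38 KO and 18 in WT, at 5.36 ± 0.290 CPM per kb in CD38 KO and 8.84 ± 0.036 CPM per kb in WT (SD, n = 3 each).

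Position in the genome moved with some of the results. SLC25A15 (40789412 to 40810111, plus strand) and SLC25A30 (45393316 to 45418455, minus strand) both lie on chromosome 13, where 45.7% of 392 tested genes were higher and 5.1% lower, with a median log2 fold change of 0.394. Of the 10 nearest tested neighbours of SLC25A15, 6 were higher and 0 lower (median log2 fold change 0.597), and of those of SLC25A30, 7 were higher and 0 lower (median 0.912). The part of the chromosome in the higher level of these carriers was not tested. Nothing like this was seen around the other members past 0.5 on the log2 scale: the neighbours of SLC25A35 were 2 higher and 2 lower, those of SLC25A42 3 higher and 2 lower, and those of SLC25A27 4 higher and 4 lower. SLC25A3 lies on chromosome 12, which had 19.1% of 1081 tested genes higher and 31.3% lower (median -0.112).

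**Figure D5:**
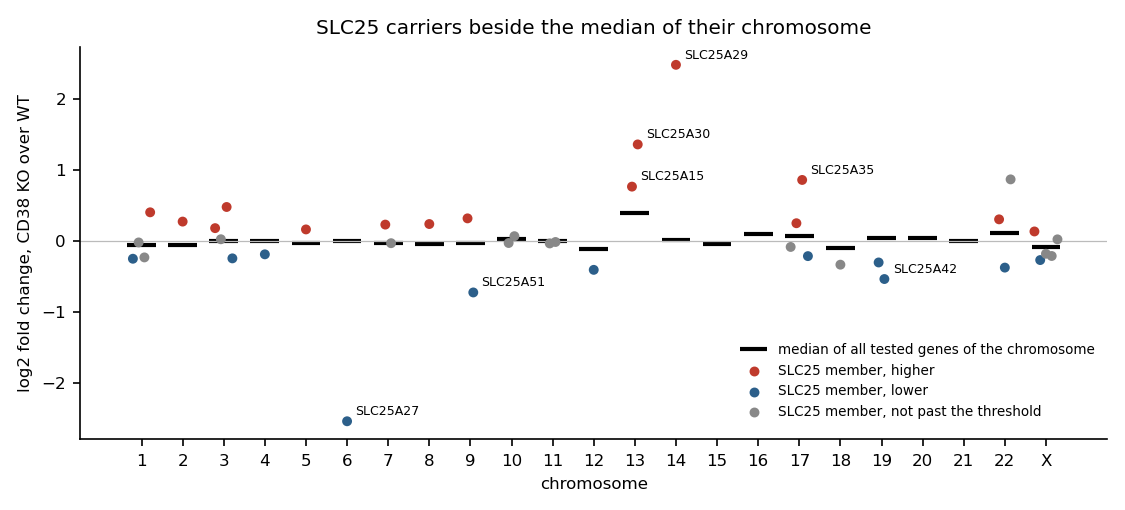
Log2 fold change, CD38 KO over WT, of 40 tested carriers (points, red higher, blue lower, grey not past the threshold) above its chromosome, beside the median of all tested genes of that chromosome (black bars). The median of chromosome 13 is 0.394 and its members SLC25A15 and SLC25A30 lie above it; the other medians lie between -0.112 and 0.116.

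The promoters of the family were rich in G and C. RefSeq (GRCh38.p14) gave a window of 250 bases before to 50 after the start for 40 of the 48 members, and the median share of G and C was 66.2%, against 58.3% over 27195 promoters. Those 27195 were not limited to protein-coding or tested genes, so they are not a matched background for the shares given here. On either strand, the E-box CACGTG bound by MYC and its relatives was in 7 of the 40 (17.5%) and in 7.45% of all windows, and the NRF1 motif (GCGCA, any base, GCGC), bound by a regulator of nuclear genes for mitochondria, was in 5 (12.5%) and in 6.3%. The ETS motif CCGGAAG was in 8 members (20%) and in 10.7% of all windows, and TATAAA in 3 (7.5%) and in 12%. The GC box GGGCGG was in 28 members (70%) and in 44.7% of all windows, and the CCAAT box (CCAAT) in 19 (47.5%) and in 35.7%. By direction, the E-box was in 3 of 12 higher, 2 of 11 lower and 2 of 17 other members, the NRF1 motif in 1, 2 and 2 of these, the ETS motif in 2, 4 and 2, the GC box in 9, 7 and 12, the CCAAT box in 6, 7 and 6, and TATAAA in 1, 0 and 2. These differences were not tested. The window of SLC25A51 (chr9:37904078-37904377, minus strand) is shown because it holds both the E-box and the NRF1 motif, in capitals with the E-box first, while those of SLC25A15, SLC25A29 and SLC25A42 hold neither of these.
SLC25A51 promoter: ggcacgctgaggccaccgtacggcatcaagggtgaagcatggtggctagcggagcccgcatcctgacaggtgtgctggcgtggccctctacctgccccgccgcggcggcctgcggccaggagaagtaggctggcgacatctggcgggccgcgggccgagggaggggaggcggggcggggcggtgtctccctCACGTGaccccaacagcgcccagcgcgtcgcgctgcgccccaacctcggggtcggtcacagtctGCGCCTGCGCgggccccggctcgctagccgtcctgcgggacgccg

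The genes that work with the carriers gave the metabolic surroundings of these changes; the lists were not tested as sets. Of 83 tested genes on 10 lists, 36 were higher and 22 lower, with a median log2 fold change of 0.077. The balance rests on the scaling, since with library size alone 26 were higher and 32 lower. Of the 73 that averaged at least 10 CPM, 35 were higher and 20 lower, where 32.6% and 30.7% of all genes at that level were. The machinery that brings carrier precursors into the inner membrane had 10 of 15 tested genes higher and 3 lower, or 8 and 3 with library size alone. Across all tested genes 22.8% were higher and 21.6% lower. However, 14 of the 15 averaged at least 10 CPM, with 10 higher and 3 lower, and of all genes at that level 32.6% were higher and 30.7% lower. TOMM40 and TOMM20 were among the calls of small size, at 0.12 and 0.11 on the log2 scale (edgeR adjusted p = 0.0402 and 0.0494). The larger ones included the small chaperone TIMM13 (0.50, edgeR adjusted p = 2.16e-08) and the receptor TOMM70 (0.30, edgeR adjusted p = 2.37e-05), with the receptor TOMM22 lower (-0.20, edgeR adjusted p = 0.00135), all log2 fold changes. Of the VDAC channels, which pass metabolites through the outer membrane, VDAC1 was higher, at 357.2 ± 1.585 CPM in CD38 KO and 283.6 ± 7.404 CPM in WT (SD, n = 3 each; edgeR adjusted p = 2.28e-07).

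Enzymes beside SLC25A11, SLC25A12 and SLC25A13 in the malate-aspartate shuttle were higher with them, GOT2 by 0.26, GOT1 by 0.23 and MDH2 by 0.19 on the log2 scale (edgeR adjusted p = 9.46e-06, 3.83e-05 and 5.38e-04). That list, with the glycerophosphate shuttle, had 4 of 6 genes higher and 1 lower. On the citrate list, 4 of 9 genes were higher and 2 lower. ME3, 1 of the lower genes, had 6, 15 and 2 counts in CD38 KO and 63, 72 and 43 in WT. It reached the cutoff of the filter on low counts in 3 WT libraries and 1 CD38 KO library, so its direction followed from the filter. Of the genes averaging at least 10 CPM, the shuttle list had 4 of 4 higher and 0 lower, and the citrate list 4 of 8 higher and 1 lower. Of all genes at that level 32.6% were higher and 30.7% lower. With library size alone, 3 were higher and 1 lower on the shuttle list, and 3 and 3 on the citrate list. IDH2, which makes oxoglutarate and NADPH in the matrix, averaged 3191 ± 103.2 CPM in CD38 KO and 1123 ± 27.3 CPM in WT (SD, n = 3 each; log2 fold change 1.51, edgeR adjusted p = 4.22e-18). ACLY, which splits the citrate exported by SLC25A1, was higher by 0.27 (edgeR adjusted p = 7.29e-06), and citrate synthase CS was lower (-0.26, edgeR adjusted p = 1.9e-05), both on the log2 scale.

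On the carnitine list, beside SLC25A20, 1 of 5 tested genes was higher, CRAT (log2 fold change 0.42, edgeR adjusted p = 3.32e-06), and 1 was lower, CPT2 (-0.25, edgeR adjusted p = 0.00104). Of 8 tested genes that use mitochondrial iron, 2 were higher and 3 lower. Beside this and the other lists here, 32.6% of all genes averaging at least 10 CPM were higher and 30.7% lower. The iron-sulphur scaffold ISCU averaged 322.5 ± 10.2 CPM in CD38 KO and 667.0 ± 23.4 CPM in WT (SD, n = 3 each; log2 fold change -1.05, edgeR adjusted p = 7.5e-15). FECH, which puts iron into haem, was higher (0.59, edgeR adjusted p = 1.32e-10) and the ferredoxin FDX1 lower (-0.36, edgeR adjusted p = 1.33e-05). The folate list had 3 of 7 genes higher and 2 lower, with SHMT1 at 0.59 and MTHFD1 at -0.38. The list of glutamine and proline use had 4 of 8 higher and 2 lower, with the ornithine aminotransferase OAT and the proline enzyme PYCR1 both at 0.27. Of 18 other mitochondrial membrane transport genes, which are carriers and uniporter parts of the inner membrane and the outer-membrane protein TSPO, 7 were higher and 6 lower, and those with the smallest adjusted p were lower: ABCB8 (-0.79), MCUB (-0.78), the inhibitory subunit of the calcium uniporter, and TSPO (-0.76). All 8 iron genes averaged at least 10 CPM. At that level the carnitine list had 1 of 4 higher and 1 lower, and the folate list 3 of 6 and 2. The glutamine and proline list had 4 of 6 and 2, and the other transport genes 6 of 17 and 6. With library size alone, higher and lower were 1 and 3 (carnitine), 2 and 5 (iron) and 2 and 3 (folate). They were 2 and 2 for glutamine and proline, and 4 and 9 for the other transport genes.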

How the data were processed

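RNA-seq libraries of 3 CD38 KO and 3 WT samples were made with a SMARTer low-input kit from 10 ng of total RNA (integrity above 8.0), per the labels' protocols. The authors deposited raw counts per gene, in a single table. STAR 2.7.9a, Partek and DESeq2 appear in the submitters' processing notes, with no role assigned. Which genome build, annotation, counter and strand option lay behind them is not given in the sources used here. Counts of genes that overlap, run antisense or are nearly identical are therefore uncertain. The table had 60871 lines, of which 200 repeated an identifier with equal counts, and each identifier was kept once. All pairs of libraries differed beyond sampling noise, by a chi-square test of their counts (lowest chi-square 5.96 times its degrees of freedom).

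CD38 KO was set against WT in R 4.3.3 with edgeR 4.0.16, by its quasi-likelihood test (TMM, filterByExpr with a minimum count of 10, robust, no covariate), with Benjamini-Hochberg adjustment over 20120 tested genes. The SE is the size of the unshrunken log2 coefficient over the square root of its F. Shares within groups of paralogues were compared by two-sided exact permutation over the 6 libraries. Coordinates, exon lengths and coding sequences came from GENCODE 29 by Ensembl identifier (found for 98.6% of tested genes), which may not be the annotation behind the counts. Promoters came from RefSeq (GRCh38.p14). The edgeR steps were tested on simulated data.

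The members, the lists of classes, paralogues and partner genes, and the tests were chosen with earlier results of these data known. Named are SLC25A51, SLC25A52, the ADP/ATP carriers and every member past an adjusted p of 0.05 and 0.5 on the log2 scale, other members by log2 fold change (the values of 1 member are not reported here), up to 3 genes per partner list with the smallest adjusted p, and CD38. The 14 alternatives were RLE factors, library size alone, no filter, at least 1 CPM in 3 libraries, DESeq2 1.42.0, limma-voom (limma 3.58.1), the replicate number as a block, a fit without mitochondrially encoded genes, and each library left out in turn.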

Additional observations from a re-analysis of the deposited data

How the results depend on the processing

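Counts of members higher and lower stayed within 1.5 times of those reported in all 14 alternatives, at 12 to 16 higher and 10 to 13 lower. Leaving out 1 library gave 13 to 15 higher and 10 to 12 lower. Of the 26 called members, 21 kept direction and call in all 14 alternatives, and none changed sign where it was tested. SLC25A27 had too few counts to be tested under the filter at 1 CPM in 3 libraries and kept its call in the other 13. The other exceptions lost the call: SLC25A5 with library size alone (0.054), SLC25A13 with library size alone (0.151), without WT replicate 1 (0.209) and without WT replicate 2 (0.218), SLC25A24 without CD38 KO replicate 2 (-0.186, edgeR adjusted p = 0.0505), and SLC25A46 with library size alone (0.084) and without WT replicate 2 (0.134), as log2 fold changes. The cause was not tested. Library size alone moved the median of all tested genes by -0.083 and lowered SLC25A20 to 0.101 and SLC25A37 to 0.159 with the calls kept. It also turned the balance of the partner lists, to 26 higher and 32 lower.

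Changes of sign arose among genes that were not called. With library size alone, SLC25A26 was at -0.055, SLC25A28 at -0.012, SLC25A53 at -0.057, VDAC2 at -0.014 and VDAC3 at -0.007. With 1 library left out, the log2 fold change ran from -0.096 to 0.067 for SLC25A16, -0.079 to 0.008 for SLC25A22, -0.052 to 0.142 for SLC25A26, -0.038 to 0.013 for SLC25A33, -0.998 to 0.091 for SLC25A34, -0.104 to 0.067 for SLC25A40, -0.043 to 0.023 for SLC25A45 and -0.029 to 0.083 for SLC25A53. SLC25A14 was called lower with library size alone (-0.261) and without WT replicate 1 (-0.258), and SLC25A43 with library size alone (-0.292) and without CD38 KO replicate 3 (-0.291).

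Same-numbered libraries did not deviate together (correlations of 0.034, -0.008 and -0.021), so the replicate numbers were not taken as pairs. The fit with the replicate block gave 15 members higher and 11 lower, and 4554 of all tested genes higher and 4364 lower. Low counts limit SLC25A27, SLC25A18, SLC25A34 and SLC25A52 and the 7 untested members.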

Other observations

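The table also holds 47 genes named after SLC25 carriers that code for no protein, 41 pseudogenes and 6 noncoding RNAs. Of these, 13 were tested. By edgeR's quasi-likelihood test 2 were higher in CD38 KO and 0 lower, where 22.8% and 21.6% of all tested genes were. SLC25A5P1, a processed pseudogene of SLC25A5, had 74, 50 and 62 counts in CD38 KO and 35, 42 and 37 in WT (log2 fold change 0.85, edgeR adjusted p = 0.0232). SLC25A25-AS1, antisense to SLC25A25, had 534, 427 and 525 counts in CD38 KO and 455, 357 and 377 in WT (log2 fold change 0.47, edgeR adjusted p = 0.00238).

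The 9 pseudogenes of SLC25A5 together had 1.59% to 2.15% of the counts of SLC25A5 in the CD38 KO libraries and 2.03% to 2.22% in the WT libraries. The 6 of SLC25A6 had 0.212% to 0.377% of its counts in CD38 KO and 0.317% to 0.401% in WT. The 4 of SLC25A51 had 0.71% to 2.27% of its counts in CD38 KO and 1.17% to 1.51% in WT. How far these counts came from reads of the parent genes was not tested.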
